A study of Mus musculus with 4 samples.

Results

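The CD1C+ cells described here were 284 human leukocytes out of 16327 usable cells, from breast tumors grown in humanized mice. They were chosen by the unique molecular identifiers (UMIs, each standing for 1 captured RNA molecule) that they carried for a few genes. A cell was a member when CD1C, CLEC10A and FCER1A together had at least 3 UMIs with at least 1 for CD1C, when CLEC9A, XCR1 and CADM1 together had at most 1 and LAMP3 at most 1, and when C1QA with C1QB had at most 4 and CD3D, CD3G and TRAC together at most 1. The usable cells came from 42702 barcodes and had 601 or more and at most 6000 genes, a low mitochondrial share and a top hashtag with at least 60% of the hashtag UMIs. Reaction 1 gave 97 members of 7361 cells and reaction 2 gave 187 of 8966. The reactions shared 136 barcodes, of which 32 were among the usable cells and 0 among the members.

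The study asked how the drug maraviroc changed tumor immune cells. MISTRG mice, an immunodeficient strain that carries human genes for M-CSF, GM-CSF and IL-3 and was engrafted with human CD34+ hematopoietic stem cells, received MDA-MB-231 cells, an established human triple-negative breast carcinoma line, in the mammary fat pad. From day 21, 7 of the mice drank water with 300 mg/l of maraviroc over 10 days, the other 7 were untreated, and human CD45+ cells were sorted from the tumors at day 31. Hashtag antibodies marked the mouse of each cell, and the cells were loaded in 2 reactions for droplet-based 3' sequencing of single-cell RNA, reaction 1 with 4 untreated and 3 maraviroc mice and reaction 2 with 3 untreated and 4 maraviroc mice. All human cells of these tumors had matured in a mouse host under those human cytokines, and the tumor came from a single cell line. The mouse was the replicate, and where nothing else is stated a level is the summed UMIs of a gene in the members of 1 mouse or class per 1000000 of all their UMIs (CPM), a scale without gene length, so that levels are compared between cells and not between genes.

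Conventional dendritic cells take up antigen and present it on MHC class II molecules to T cells. The type 2 lineage is recognised in humans by CD1C, a CD1 molecule that presents lipid antigens, by the lectin CLEC10A and by the high-affinity IgE receptor chain FCER1A, and it depends on transcription factors such as IRF4. Monocytes and the dendritic cells that share features with them carry CD14, VCAN and the alarmins S100A8 and S100A9, type 1 dendritic cells carry CLEC9A and XCR1, and mature dendritic cells carry LAMP3 and CCR7.

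The members were sequenced about as deeply as the other dendritic classes. Their median was 14717.5 UMIs and 4034 genes per cell, with 13170 UMIs in reaction 1 and 14906 in reaction 2 and a range of 1416 to 36995. The remaining usable cells had a median of 8439 UMIs, and whether the requirement of 3 UMIs had a part in this gap was not tested. Members per mouse numbered 7, 9, 28 and 30 in the untreated mice of reaction 1 and 11, 8 and 4 in its maraviroc mice. In reaction 2 they numbered 39, 23 and 15 in the untreated mice and 21, 45, 37 and 7 in the maraviroc mice. Maraviroc mouse 1 of reaction 1 stood apart, with a median of 4303 UMIs and 1857 genes in its members against 9122.5 to 21058 UMIs in the members of the other mice.

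The label of type 2 dendritic cells was only partly borne out by the markers. The rule chose on CD1C, CLEC10A and FCER1A, so their levels are descriptions. CD1C stood at 350 CPM in the members, against 6.37 in VCAN+ cells, 175 in CLEC9A+ cells, 25.2 in LAMP3+ cells and 1.42 in cells with T cell receptor transcripts. In the 7 mice that could be compared with CLEC9A+ cells, however, the mean CD1C level was 319 against 286 CPM, higher in the members of 3 mice and lower in those of 4. A CD1C UMI was found in 0.772% of the cells with T cell receptor transcripts, which should lack the gene and had a median of 7251.5 UMIs. CLEC10A, a lectin for terminal galactose sugars, was found in 229 members (80.6%) and stood at 227 CPM. FCER1A was all but missing. It had 0 UMIs in the 97 members of reaction 1 and 10 UMIs in 3 members of reaction 2. Of the usable cells with any FCER1A UMI, 27 in reaction 1 and 43 in reaction 2, 22 and 26 also had at least 2 UMIs of the mast cell transcripts CPA3, TPSAB1 and TPSB2. Hence 53 members, 26 in reaction 1 and 27 in reaction 2, were chosen on CD1C alone.

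CRIP2 and HPGD, which the rule did not use, were both found in the members. CRIP2, a LIM domain protein, stood at 86.9 CPM in the members and at 22 in VCAN+, 10.6 in CLEC9A+ and 7.62 in LAMP3+ cells. HPGD, the enzyme that inactivates prostaglandins, stood at 92.6 CPM in the members and at 26.8 in VCAN+, 0 in CLEC9A+ and 6.86 in LAMP3+ cells, but reached 124 CPM in cells with T cell receptor transcripts. FLT3, the growth factor receptor of the dendritic lineages, had 1.18 CPM in the members, with a UMI in 5 of 284, against 118 CPM in CLEC9A+ cells and 621 CPM in LAMP3+ cells. Monocyte transcripts were found in many members, above the share in cells with T cell receptor transcripts, which should lack them. After every cell was thinned to 2000 UMIs, VCAN, a proteoglycan of the pericellular matrix, had a UMI in 71.0% of 283 members and in 7.18% of 3748 cells with T cell receptor transcripts. S100A9 had one in 57.2% against 11.5%, and the endotoxin co-receptor CD14 in 33.9% against 7.23%. Without thinning these shares in the members were 91.2, 83.8 and 79.9%, against 14.2, 26.5 and 19.6% in the cells with T cell receptor transcripts. The lower quartile of single members was 126 CPM of S100A9, beside 402 CPM over all UMIs of the cells with T cell receptor transcripts. The first is a value of single cells and the second of a whole class, so they do not rank members against single cells of that class. The mannose receptor MRC1, a macrophage and dendritic cell gene, had a UMI in 77.7% of thinned members against 5.2% of those cells. For these reasons the members are called CD1C+ cells below and no narrower name is used.

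**Figure D1:**
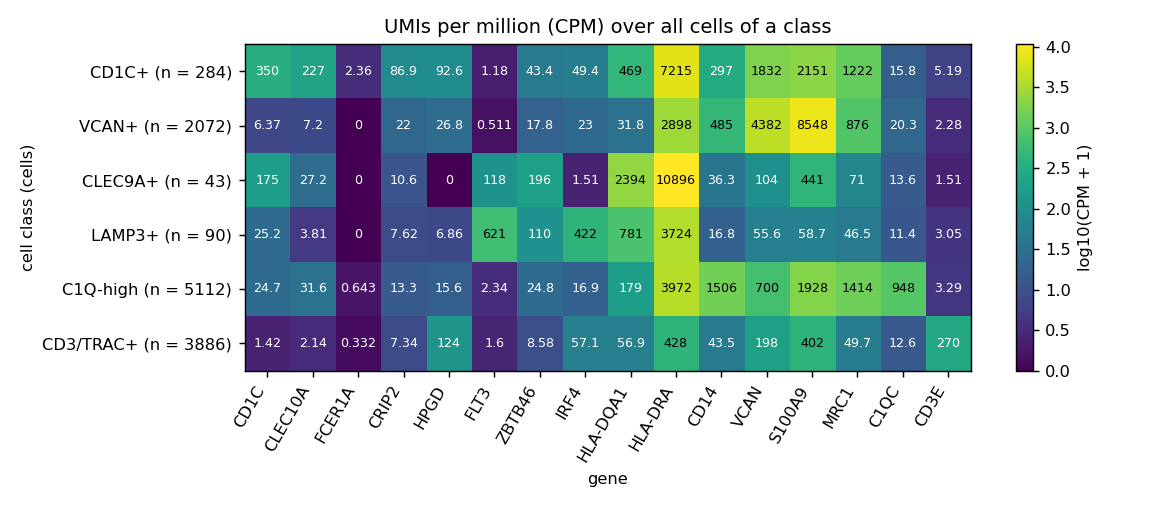
Level of type 2 dendritic cell, dendritic cell, monocyte and other marker genes in the 284 CD1C+ cells and in the classes they are compared with, each cell of the map giving the CPM of the summed UMIs and colored by log10(CPM + 1). FCER1A and FLT3 are near 0 in CD1C+ cells, while VCAN, S100A9 and CD14 lie between the VCAN+ and the CLEC9A+ or LAMP3+ cells.

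Markers of other cell types in the members were summed over whole lists. The macrophage list of 15 genes came to 2043 CPM, led by MRC1 at 1222, against 19445 CPM in C1Q-high cells. All of its genes had some UMI, and the rule capped C1QA and C1QB. The T and NK list of 11 genes came to 336.7 CPM, led by the cytokine receptor IL7R at 181.8, against 6444 CPM in cells with T cell receptor transcripts and 333.8 CPM in VCAN+ cells. The mast cell list summed to 100.4 CPM, of which HPGDS, a prostaglandin synthase, made up 75.3. The B and plasma list summed to 72.3 CPM, led by CD79B at 23.1, and the red cell list to 0.472 CPM with 2 of its 6 genes found. In untreated mouse 3 of reaction 2, 1 member carried at least 2 mast cell UMIs. The tumor cell list came to 24.6 CPM, led by AXL at 19.4, and the keratin list to 74.6, led by KRT7 at 41.1. Pairs of cells in 1 droplet were removed only through the hashtag share and the limits on genes and marker UMIs, and the part of such doublets or of free RNA in these sums was not tested.

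The members were not uniform. A UMI of CD1A, CD1B or CD1E, the other CD1 molecules of group 1 and their loading partner, was present in 85 members with a median of 15397 UMIs and absent in 199 with a median of 14341. Members with such a UMI had 488 CPM of CD1C against 290, and 791 CPM of the class II gene HLA-DQA1 against 330. S100B, a calcium-binding protein known from some dendritic cells, stood at 274 CPM in them against 23.0. LTB, which encodes lymphotoxin beta, stood at 479 CPM against 150, on 613 and 443 UMIs. A single member held 212 of these LTB UMIs, so the LTB values rest in part on 1 cell. VCAN was lower in the members with such a CD1 UMI, at 1150 CPM against 2128, as were S100A9 at 1520 against 2424 and S100A8 at 336 against 801. CD14 and HPGD did not follow the same order, with 307 against 292 CPM for CD14 and 87.6 against 94.7 CPM for HPGD. Over the 267 members with at least 5000 UMIs, the Spearman correlation of normalised levels was -0.55 for CD1C with S100A9, 0.41 for VCAN with S100A9 and 0.52 for HLA-DQA1 with HLA-DRA. These cells share their mice, reactions and depth, and the rule itself ties CD1C to its threshold, so the values describe the cells and are no test.

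S100B was uneven between mice. It stood at 1765 CPM in the 9 members of untreated mouse 2 and at 467 CPM in the 11 members of maraviroc mouse 1 of reaction 1, at 435 CPM in untreated mouse 3 of reaction 2, and at 0 to 61.7 CPM in the others. HLA-DRA, the alpha chain of HLA-DR, varied far less, from 4488 to 9186 CPM over the 14 mice.

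The 47 members with exactly 3 UMIs of the selecting genes and the 74 cells just outside with 2 were alike in depth, with medians of 12558 and 12833.5 UMIs. Inside the threshold CD1C stood at 155 CPM and CLEC10A at 76.0, and outside at 111 and 42.5. Of the monocyte genes, VCAN stood at 3270 CPM outside against 2388 inside and S100A9 at 4677 against 3473, while FCN1 stood at 849 against 783 CPM and CD14 at 392 CPM on both sides. SPP1, the osteopontin gene of tumor macrophages, stood at 1349 CPM outside and 379 inside. The limit on C1QA and C1QB alone kept out 119 cells in reaction 1 and 177 in reaction 2, of which 26 and 23 had 5 to 8 such UMIs.

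VCAN+ cells were the monocyte class taken for comparison. They were 2072 cells with at least 3 UMIs of S100A8, S100A12 and FCN1, at least 1 of VCAN, at most 1 of the genes that select CD1C+ cells, and the same limits on the other markers. In the 9 mice with at least 10 cells of both classes, 249 CD1C+ and 1510 VCAN+ cells were summed by mouse and class and compared by edgeR's quasi-likelihood test with the mouse as a block and Benjamini-Hochberg adjustment at 0.05. Of 9227 genes tested, 1088 (11.8%) were higher and 1169 (12.7%) lower in CD1C+ cells, 24.5% together, with a median log2 fold change of 0.01 over all genes. Both classes were cut from 1 population by marker UMIs, so genes that follow the selecting genes from cell to cell differ through that selection, and the CD1C+ cells were also deeper, with a median of 14717.5 against 10152.5 UMIs. The genes of either rule were left out of the calls.

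MHC class II genes were higher in CD1C+ cells throughout, with 12 of 12 tested genes past the threshold and a median of 1.57 on the log2 scale. Over all genes tested, 11.8% were higher. HLA-DRA had 6138, 7429 and 9186 CPM as its lowest, median and highest mouse in CD1C+ cells and 2431, 2958 and 3478 CPM in VCAN+ cells. The classes did not overlap for HLA-DRA, and the log2 fold change was 1.33 ± 0.07 (SE, 9 mice). HLA-DQA1 had 331, 559 and 947 CPM in CD1C+ cells against 8.85, 30.3 and 87.0 CPM in VCAN+ cells. Its log2 fold change of 4.01 ± 0.27 (SE) was the largest rise among genes outside the rules that passed the threshold, moved the same way in every mouse and had a mean of at least 20 CPM. CIITA, the master activator of class II transcription, had a log2 fold change of 1.56 ± 0.10 (SE), with 211, 335 and 465 CPM against 78.9, 116 and 156. HLA-DOA, a brake on peptide loading, was higher by 2.22, HLA-DQB1 by 2.51 and the invariant chain CD74 by 1.10, all on the log2 scale. HLA genes are highly polymorphic and share reads with near-identical copies, so the split between them is uncertain.

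Of 4 tested CD1 molecules that the rule did not use, 3 were higher on low counts. CD1E, which loads lipids onto other CD1 molecules, had a log2 fold change of 4.91 ± 0.56 (SE), with a median of 12.7 CPM in CD1C+ and 0.628 CPM in VCAN+ cells. CD1B rose by 4.53 and CD1A by 3.20 on the log2 scale, with at most 33.3 and 132 CPM in any mouse. CD1D, which presents lipids to NKT cells and belongs to another group, had a log2 fold change of 0.30 with an adjusted p of 0.39. CD1A, CD1B and CD1E were close to 0 in VCAN+ cells and passed the low-count filter through the CD1C+ cells, so the count of 3 describes these classes and supports nothing further. In reaction 1 alone and with stricter markers, 1 CD1 gene was tested and 0 were called.

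**Figure D2:**
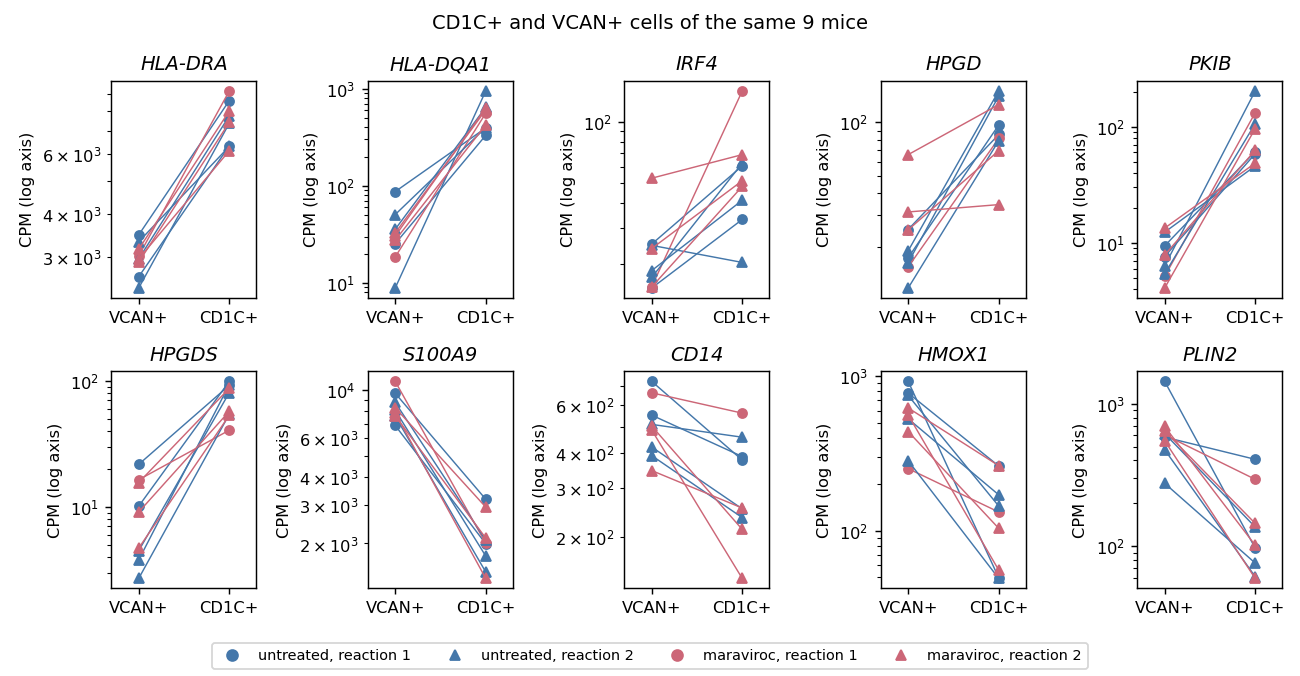
Level of class II, dendritic cell and monocyte genes in CD1C+ and VCAN+ cells of the same 9 mice, in CPM on a log axis, with 1 line per mouse. HLA-DRA was higher in CD1C+ cells in all 9 mice and S100A9 lower in all 9.

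Of the 19 tested genes of the type 2 dendritic cell list, 10 were higher and 5 lower in CD1C+ cells, and 4 were not called. Over all genes tested, 11.8% were higher and 12.7% lower. Both classes were cut by marker UMIs that such genes can follow, so this count is a description. The median of the list was 0.37 on the log2 scale. PKIB, an inhibitor of protein kinase A, had the lowest, median and highest mouse at 45.9, 62.8 and 203 CPM against 4.08, 7.61 and 13.4 CPM, without overlap, and rose by 3.34 ± 0.29 (SE) on the log2 scale. HPGD had 34.5, 85.5 and 150 CPM against 11.7, 19.0 and 65.9 CPM, which overlap across mice although it was higher in CD1C+ cells within each of the 9. Its log2 fold change was 1.96 ± 0.24 (SE). CRIP2 rose by 1.76 ± 0.18 (SE) and was higher in 8 of 9 mice, the exception being the shallow maraviroc mouse 1 of reaction 1 with 0 CPM. The transcription factor IRF4 rose by 1.26 ± 0.22 and the T cell adhesion receptor CD2 by 2.22 on the log2 scale. The inhibitory Fc receptor FCGR2B rose by 0.83 and the oxysterol receptor GPR183 by 0.53. The other direction also held members of the list. The integrin ITGAX, which encodes CD11c, fell by 0.74, NOTCH2 by 0.71, the signal-regulatory receptor SIRPA by 0.50 and the transcription factor ZEB2 by 0.41 on the log2 scale. ZBTB46, a factor of conventional dendritic cells, had 15.8, 48.6 and 69.1 CPM against 12.3, 17.3 and 23.9 CPM and rose by 1.36 ± 0.23 (SE), in 8 of 9 mice.

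Monocyte genes other than those of the rules were mostly lower in CD1C+ cells, with 10 lower, 1 higher and 1 not called of 12. Over all genes tested, 12.7% were lower and 11.8% higher. VCAN+ cells were chosen by monocyte genes, so this count too is a description. S100A9 had 1387, 2002 and 3174 CPM in CD1C+ cells against 6873, 8062 and 10900 CPM in VCAN+ cells, without overlap, and fell by 2.02 on the log2 scale (SE 0.10). The haemoglobin scavenger receptor CD163 fell by 1.53, the matrix protein THBS1 by 1.36 and FCGR3A by 1.24. CD14 had 141, 254 and 559 CPM against 347, 502 and 728 CPM and fell by 0.73 (SE 0.13), lower in 9 of 9 mice although the ranges overlap. The lysozyme gene LYZ fell by 0.44 (SE 0.11). The tetraspan gene MS4A6A rose by 0.95. VCAN itself, a gene of the rule, stood at 1833 CPM in the median mouse of CD1C+ cells and at 4314 in VCAN+ cells.

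Further lists held both directions, and their counts stand beside 11.8% higher and 12.7% lower over all genes tested. The 9 tested costimulation genes had 4 higher and 2 lower calls. CD86 rose by 0.67 (627 against 393 CPM) and CD83 by 0.56, whereas CD58, with a log2 fold change of 0.03, was not called. Of 11 tested Fc and HLA-binding receptors 2 were higher and 6 lower, and of 11 lectin and pattern receptors 3 were higher and 4 lower. Of 10 macrophage genes 2 were higher, namely MRC1 by 0.48 and the folate receptor FOLR2 by 1.51, and 5 were lower, led in abundance by SPP1 at -2.96. In the prostaglandin list 3 of 10 genes were called, a share near the 24.5% of all genes. They were HPGD, the leukotriene enzyme ALOX5, with a fall of 0.52, and HPGDS, which makes prostaglandin D2 and rose by 3.06 ± 0.24 (SE) from a median of 9.10 to 80.7 CPM. The B cell genes MS4A1 and CD79A, chosen after their values were seen, had log2 fold changes of 2.51 and 2.53. However, MS4A1 had a UMI in 4 of the 284 members, with 25 UMIs in 1 of them, and CD79A in 7. CD79B, of the same list, stood at 23.1 CPM in all members and 17.3 CPM in all VCAN+ cells. The B and plasma list summed to 251.7 CPM in the members of untreated mouse 1 of reaction 2, and the part of B cell RNA in the comparison was not tested. KRT7, a keratin, had a log2 fold change of 1.09 and was higher in 7 of 9 mice.

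Lists of tumor stress and metabolism are given beside the 12.7% of all genes that were lower and the 11.8% that were higher. Of 10 hypoxia genes 7 were lower and 0 higher, and the list had a median of -0.97 on the log2 scale. The most abundant of them, the glycolytic genes ENO1 and LDHA, were not called at -0.23 and 0.00, whereas PGK1 fell by 0.25 and the growth factor VEGFA by 0.51. Of 12 genes of oxidative stress and iron handling 8 were lower and 0 higher. Ferritin heavy chain FTH1 was not called at -0.10, while ferritin light chain FTL fell by 0.74 and the heme-degrading enzyme HMOX1 by 2.18, with 137 against 572 CPM. In lipid handling 10 were lower and 3 higher of 14, with the acyl-CoA synthetase gene ACSL1 lower by 0.75. PLIN2, the lipid droplet coat protein, fell by 2.24 on the log2 scale (SE 0.24), with 59.3, 101 and 407 CPM against 277, 606 and 1439 CPM. The scavenger receptor CD36 fell by 0.39 and the nuclear receptor PPARG by 1.44. Interferon response genes had 8 lower and 0 higher calls of 20, with the ubiquitin-like antiviral gene ISG15 lower by 0.48 and MX1 not called at 0.07. Of the hypoxia genes, 1 of 10 was lower in reaction 1 tested alone, with a list median of -0.89, 2 of 8 with stricter markers, with a median of -0.22, and 3 of 7 after thinning to 2000 UMIs, with a median of -0.49. Of the oxidative stress and iron genes, 3 of 10, 2 of 10 and 5 of 10 were lower in the same settings, where the list's median was -0.69, -0.62 and -0.79, against -0.70 over the 12 genes.

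The largest changes beyond those lists included the chemokine receptor CCR6, which guides cells toward CCL20, with 32.3 against 2.15 CPM and a log2 fold change of 3.72 ± 0.35 (SE). The lipid transporter ABCA6 rose by 3.05 ± 0.17 from a mean of 21.2 to 167 CPM, S100B by 3.46 and the transcription elongation factor gene TCEA3 by 3.87. On the lower side RETN, the resistin gene, fell by 3.76 (52.0 against 636 CPM), the water and glycerol channel AQP9 by 2.91 and S100P by 5.75, and the platelet chemokine gene PPBP fell by 4.78. The metallothionein genes MT1G and MT1H fell by 2.91 and 2.87, and the ephrin gene EFNA5 by 5.03. Several of these genes were close to 0 in 1 class, such as S100P at a mean of 0.25 against 23.8 CPM. PPBP stood at 1.33 against 45.8 CPM and TCEA3 at 22.1 against 1.68 CPM. Such genes passed the low-count filter through the class where they were high, so their fold changes are descriptions.

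**Figure D3:**
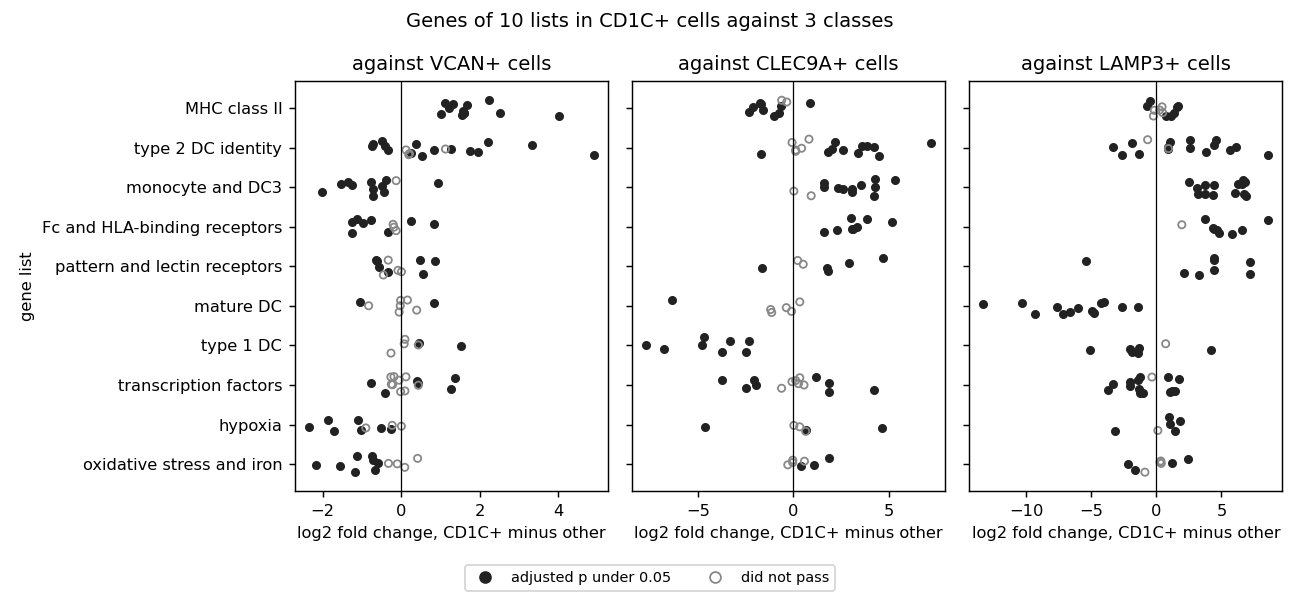
Log2 fold change of each tested gene of 10 lists in CD1C+ cells against VCAN+, CLEC9A+ and LAMP3+ cells, 1 point per gene, filled where the adjusted p was under 0.05 and open where it was not. The MHC class II list has 12 of 12 genes higher against VCAN+ cells and 8 of 11 lower against CLEC9A+ cells.

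CLEC9A+ cells, with at least 3 UMIs of CLEC9A, XCR1 and CADM1 and at least 1 of CLEC9A, numbered 43, with at most 8 in any mouse. The comparison therefore took the 7 mice with at least 10 CD1C+ and at least 3 CLEC9A+ cells, a minimum chosen after seeing the counts, with 191 against 33 cells. Of 3971 genes 840 (21.2%) were higher and 697 (17.6%) lower in CD1C+ cells, 38.7% together. Type 1 dendritic cell genes outside the rule were lower in 8 of 8 tested, including IRF8, the lineage factor, with a median of 69.1 and a highest mouse of 103 CPM in CD1C+ cells against 482, 762 and 1428 CPM in the lowest, median and highest mouse of CLEC9A+ cells. The groups did not overlap and IRF8 fell by 3.74 (SE 0.23). FLT3 fell by 6.68, the transcription factor BATF3 by 2.47 and ZBTB46 by 1.94. Genes such as DNASE1L3, at a mean of 1.04 against 264 CPM, and CLNK, at 8.66 against 523 CPM, passed the low-count filter through the CLEC9A+ cells, and both classes were cut by marker UMIs, so the count of 8 is a description of the classes. ZEB2, which opposes the type 1 program, stood at 1571 to 2091 CPM in CD1C+ cells and at 14.6 to 229 CPM in CLEC9A+ cells, a log2 fold change of 4.23 ± 0.34 (SE).

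Class II genes ran the other way from the comparison with VCAN+ cells, with 8 of 11 lower and 1 higher. Over all genes tested, 17.6% were lower and 21.2% higher. HLA-DQA1 had 397, 604 and 947 CPM in CD1C+ cells against 1600, 2389 and 3570 CPM, without overlap, and fell by 2.33 (SE 0.17). HLA-DRA fell by 0.77 (SE 0.09) and was lower in 7 of 7 mice. CIITA, by contrast, rose by 0.86 ± 0.22 (SE), with 355 against 153 CPM in the median mouse. Of the type 2 dendritic cell list, NOTCH2, CD2 and CSF2RA were not called, at 0.43, 0.12 and -0.07. Several myeloid receptors were higher in CD1C+ cells. The M-CSF receptor CSF1R rose by 3.59, the integrin ITGAM by 4.48, SIRPA by 3.41 and MRC1 by 4.69, and 8 of 8 Fc and HLA-binding receptors were higher, led by LILRB2, an inhibitory receptor for class I molecules, with 101 to 209 CPM against 0 to 12.1 CPM. Of the monocyte list 11 of 13 were higher, with S100A9 at 3.09 and CD14 at 2.63. Genes such as LILRB2, at a mean of 2.52 CPM in CLEC9A+ cells, and THBS1, also at 2.52 CPM, passed the low-count filter through the CD1C+ cells, so these counts are descriptions. Cytokine genes were higher in 10 of 14, among them CXCL8 by 4.54 and IL1B by 5.73. Their whole list summed to 5355 CPM in all CD1C+ cells and to 586 CPM in all CLEC9A+ cells. Its members could pass the low-count filter through the CD1C+ cells, so this count too is a description. PKIB was lower in CD1C+ cells by 1.70 here, opposite to its direction against VCAN+ cells.

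Some genes had no UMI in the 43 CLEC9A+ cells. Taking 3 counts over the class as the floor, HPGD was at least 20.4-fold higher in CD1C+ cells, the formyl peptide receptor FPR1 at least 31.1-fold, the scavenger gene CD5L at least 15.6-fold and the lectin CLEC4E at least 15.0-fold higher. The receptor kinase gene ROR1 had no UMI in CD1C+ cells and was at least 162-fold lower. The floor covers counting error only.

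LAMP3+ cells had at least 3 UMIs of LAMP3 and at least 1 of CCR7 and numbered 90. Only 3 mice, all given maraviroc and all in reaction 2, had 10 cells of both classes, 103 against 47 cells. Of 5466 genes 1073 (19.6%) were higher and 1118 (20.5%) lower in CD1C+ cells, 40.1% together. Of mature dendritic cell genes outside the rule, 13 of 13 tested were lower, but genes such as CCL19, at a mean of 0 against 2906 CPM, and CCL17, at 1.05 against 1067 CPM, passed the low-count filter through the LAMP3+ cells, so this count too is a description. The anti-apoptotic gene BIRC3 had 193, 212 and 245 CPM in the 3 mice of CD1C+ cells against 2741, 2886 and 3235 CPM and fell by 4.0 (SE 0.17). The actin bundler FSCN1 fell by 6.02 and the tryptophan-degrading enzyme IDO1 by 7.17. CCL22, a chemokine that draws regulatory T cells, had no UMI in CD1C+ cells. Over all 284 CD1C+ and all 90 LAMP3+ cells of the series, with 3 counts as the floor, CCL22 was at least 277-fold lower. IRF4 was also lower, with 48.2, 51.4 and 69.0 CPM against 429, 483 and 514 CPM and a fall of 3.32 (SE 0.27).

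Of monocyte genes 14 of 14 tested were higher in CD1C+ than in LAMP3+ cells, but genes such as CD36, at a mean of 206 against 1.44 CPM, and FCGR1A, at 40.8 against 1.29 CPM, passed the low-count filter through the CD1C+ cells. This count and those of the receptors that follow are descriptions. S100A9 stood at 1387, 2115 and 2925 CPM against 4.63, 15.4 and 39.0 CPM, a log2 fold change of 6.58 ± 0.30 (SE). Of 9 Fc and HLA-binding receptors 8 were higher, and of 8 lectin and pattern receptors 7 were higher, whereas LY75, the uptake receptor DEC-205, fell by 5.39. Of 9 costimulation genes 5 were lower and 3 higher, beside 20.5% lower and 19.6% higher over all genes tested. CD83 fell by 2.51, with 355 to 619 CPM against 1861 to 2360 CPM, and CD80 and CD86 fell by 1.10 and 0.94. Of 12 class II genes 5 were higher and 2 lower, the lower ones a share near that of all genes tested. HLA-DRA rose by 0.76 and HLA-DQA1 fell by 0.71. HPGD, with 34.5 to 126 CPM against 0 to 9.27 CPM, rose by 3.84 ± 0.64 (SE). At a mean of 4.53 CPM in LAMP3+ cells it could pass the low-count filter through the CD1C+ cells, so this value is a description.

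Of 8 tested chemokine system genes 4 were lower than in VCAN+ cells and 0 higher, against 12.7 and 11.8% of all genes, and 4 were not called. CCL3 and CCL3L1, which draw monocytes and T cells, fell by 1.20 and 1.98 on the log2 scale. CCR2, the receptor that brings monocytes out of the marrow, fell by 0.49.

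The share of CD1C+ cells among usable cells did not differ between treatments beyond the spread of the mice. It was 0.824, 0.938, 2.96 and 2.51% in the untreated mice of reaction 1 and 0.926, 0.614 and 0.434% in its maraviroc mice. In reaction 2 it was 3.10, 1.61 and 1.61% in the untreated and 1.45, 3.30, 2.64 and 0.613% in the maraviroc mice. The groups overlap in both reactions. The exact 95% binomial interval, which covers counting error only, ran from 0.118 to 1.11% for the mouse with 4 members and from 2.41 to 4.39% for the mouse with 45. The mean was 1.94 ± 0.929% in untreated and 1.43 ± 1.12% in maraviroc mice (SD, n = 7 each), a difference of -0.510 percentage points with p = 0.329 in a two-sided exact permutation test within reactions. The difference was -1.15 points in reaction 1 (exact permutation p = 0.171) and -0.106 points in reaction 2 (exact permutation p = 0.943). With 1 mouse left out, the difference over both reactions ran from -0.822 to -0.316 points.

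The share depends on its denominator. Of the CD1C+ and CLEC9A+ cells together, CD1C+ cells made up 90.8 ± 9.61% in untreated and 77.1 ± 12.7% in maraviroc mice (SD, n = 7 each), a difference of -13.7 points with p = 0.0416 in the same exact permutation test, unadjusted among the 7 definitions of the share that were tried over all mice. CLEC9A+ cells numbered 0 to 8 per mouse, and 3 untreated mice of reaction 1 had none, so that this percentage moved with a few cells. Its size and sign depended on the setting. The difference was -22.2 points with at least 5 UMIs, -13.4 with over 1000 genes and -6.18 with a hashtag share of 80% (exact permutation p = 0.0392, 0.0514 and 0.333). It was 2.88 points with stricter markers (exact permutation p = 0.727). In that setting untreated mouse 2 of reaction 1 had 3 CD1C+ and 2 CLEC9A+ cells, and the other mice of reaction 1 had 0 CLEC9A+ cells. The difference was 14.2 points when the rule was applied to cells thinned to 2000 UMIs (exact permutation p = 0.445). There, untreated mouse 1 of reaction 1 had 0 CD1C+ and 0 CLEC9A+ cells, and its undefined share was counted as 0%. The 14.2 points are therefore no measure of the difference. With 1 mouse left out, p was 0.0257 to 0.0971 in the same exact permutation test and was above 0.05 for 8 of the 14 mice.

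**Figure D4:**
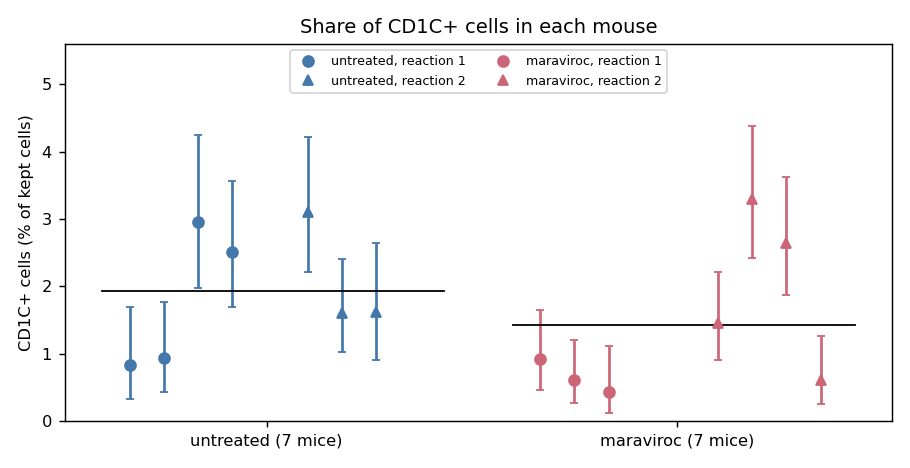
Share of CD1C+ cells among usable cells in each of the 14 mice, in percent, by treatment and reaction, with exact 95% binomial intervals and a line for the mean of each treatment. Untreated mice run from 0.824 to 3.10% and maraviroc mice from 0.434 to 3.30%.

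No gene of the CD1C+ cells passed the threshold for maraviroc. The members were summed for the 5 untreated and 4 maraviroc mice with at least 10 of them, and edgeR's quasi-likelihood test with the reaction as a covariate called 0 of 6566 genes (0%) at an adjusted p under 0.05. The unadjusted p was under 0.05 for 268 genes (4.08%), 144 of them higher after maraviroc, and the 2 groups did not overlap for 113 genes (1.72%). DESeq2 called 2 genes, WNT2B and GNLY, on the same sums. The genes of lowest p are given next as values, and none of them passed.

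WNT2B, a secreted Wnt ligand, had the lowest p. It stood at 7.64, 9.0, 6.33, 2.72 and 4.06 CPM in the untreated mice and at 10.2 CPM in the maraviroc mouse of reaction 1. In the 3 maraviroc mice of reaction 2 it stood at 59.6, 48.6 and 68.5 CPM. The groups did not overlap, but the 10.2 CPM of that reaction 1 mouse is the smallest value above 0 that its 98408 UMIs allow. The log2 fold change was 2.93 (SE 0.47) with an adjusted p of 0.138 by edgeR. In the 5 mice with under 10 members, which did not enter the test, WNT2B was at 0 CPM, among them the fourth maraviroc mouse of reaction 2 with 7 members. Within reaction 2 alone, WNT2B passed with a log2 fold change of 3.59, as did NRG1.

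NRG1, a ligand of ERBB receptors, had 168, 113, 152, 161 and 232 CPM in the untreated mice and 112, 56.5, 18.0 and 29.6 CPM in the maraviroc mice. The lowest untreated and the highest maraviroc mouse, both of reaction 1, nearly touch. The log2 fold change was -2.01 (SE 0.37, adjusted p 0.305 by edgeR), with -0.33 in reaction 1 and -2.45 in reaction 2. The mice with under 10 members did not follow this order, with 14.6 and 393 CPM in the untreated and 70.2, 299 and 145 CPM in the maraviroc mice.

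GNLY, a cytolytic granule protein of NK and T cells, stood at 33.1, 27.0, 12.7, 21.8 and 4.06 CPM in the untreated mice and at 173, 9.41, 151 and 219 CPM in the maraviroc mice. The groups overlap through 1 maraviroc mouse, and the log2 fold change was 3.03 (SE 0.60, adjusted p 0.410 by edgeR). GNLY had a UMI in 67 of all 284 members, with 111 UMIs in 1 of them, so a level can rest largely on 1 cell. The summed T and NK list stood at 218 to 420 CPM in these untreated and 383 to 467 CPM in these maraviroc mice, and GNLY at 3065 CPM in cells with T cell receptor transcripts. The part of T or NK cell RNA in the GNLY values was not tested.

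The other genes of lowest p had smaller or sparser differences. SPDYA, an activator of cyclin-dependent kinases, had 50.9, 49.5, 72.8, 30.0 and 44.7 CPM in the untreated and 112, 126, 98.5 and 98.2 CPM in the maraviroc mice, without overlap, and a log2 fold change of 1.09 (SE 0.25) that was 1.14 in reaction 1 and 1.07 in reaction 2. ENG, the TGF-beta co-receptor endoglin, had 99.3, 128, 95, 150 and 130 CPM against 61.0, 72.2, 62.5 and 61.1 CPM and a log2 fold change of -0.88 (SE 0.21). Yet in the mice with under 10 members ENG stood at 105 and 150 CPM in the maraviroc mice of reaction 1 and at 41.3 CPM in that of reaction 2. KLHL6, an adaptor of a ubiquitin ligase, had a log2 fold change of -1.19 (SE 0.27), the lysosomal transporter gene SLC49A4 of 1.04, the host transcript MIR646HG of -1.70, and TNFRSF11A, the RANK receptor, of -4.57 on sums of 0 to 35.4 CPM. The groups overlap for SLC49A4, with 0.06 in reaction 1 and 1.29 in reaction 2, and for MIR646HG, with -0.42 and -1.93. The long non-coding transcript AC007384.1 had a log2 fold change of 0.83. The adjusted p of these 7 genes lay between 0.733 and 0.831 by edgeR.

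**Figure D5:**
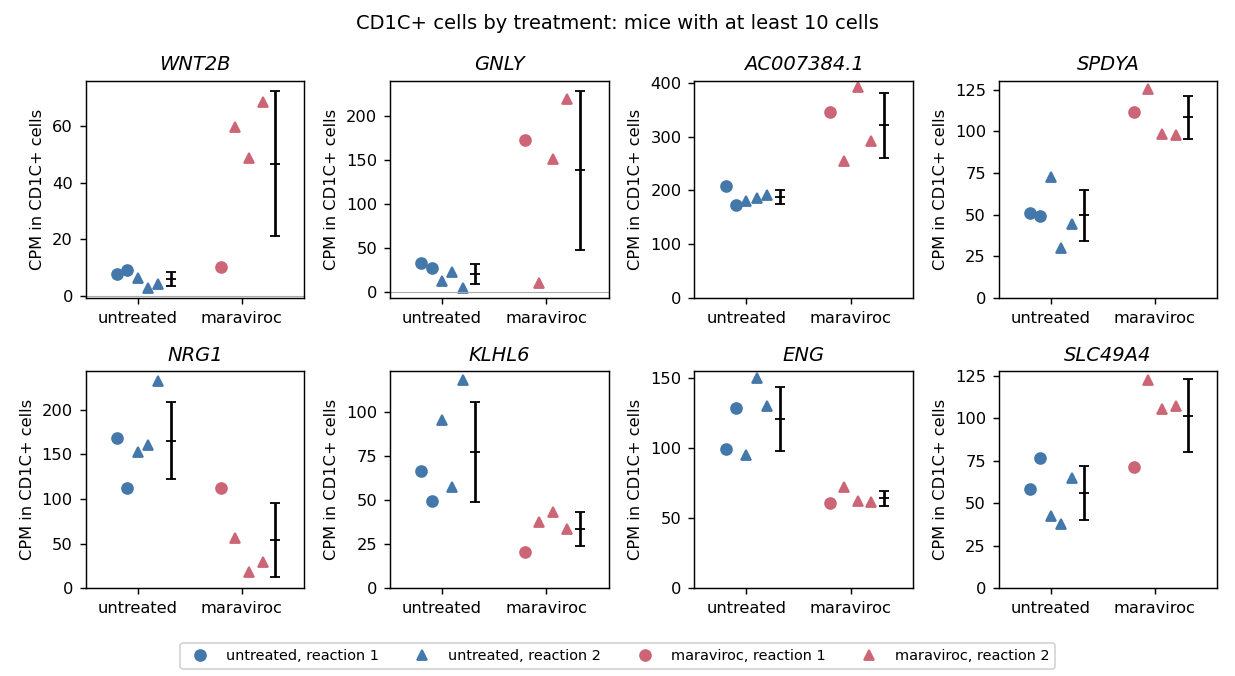
Level of 8 of the 10 genes of lowest p in the CD1C+ cells of each mouse with at least 10 of them, in CPM, by treatment and reaction, with bars for the mean ± SD. WNT2B is at 48.6 CPM or more in the 3 maraviroc mice of reaction 2 that entered the test and at 10.2 CPM or less in the other tested mice.

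Chemokine system genes and the genes that the study followed had no call by treatment, and ran in both directions. CCL8, a monocyte chemokine, stood at 0 to 201 CPM in the untreated and 3.70 to 68.0 CPM in the maraviroc mice, with a log2 fold change of -1.96 (SE 0.90) that was -4.33 without maraviroc mouse 2 of reaction 2. CCL5, CCL3, CCL3L1 and CCL4, chemokines that draw T cells and monocytes, had log2 fold changes of 1.01 (SE 0.64), 0.96 (SE 1.0), 0.89 (SE 0.65) and 0.50 (SE 0.78). Those of CCL4L2, CCR1 and CCR2 were -0.03, 0.08 and -0.57. The value of CCL5 ran from 0.71 to 1.94 with 1 mouse left out. The value of CCL3 rested on that same maraviroc mouse 2 of reaction 2, at 1046 CPM against 10.2 to 18.8 CPM in the other tested maraviroc and 89.9 to 239 CPM in the tested untreated mice. Without that mouse CCL3 was called lower after maraviroc, at -3.03 (adjusted p 0.0113 by edgeR), and CCL3L1 and CCL4, which were not called, had values of -0.53 and -1.60.

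The 10 tested genes that the study followed had values of both signs. The amino acid oxidase IL4I1 had a log2 fold change of -0.94 (SE 0.39), the fatty acid binding protein FABP5 of -0.57 (SE 0.21), the chemokine CXCL10 of -1.02 (SE 0.85) and CD36 of -0.24 (SE 0.22). Without untreated mouse 2 of reaction 2 the value of CD36 was -0.05. The transferrin receptor TFRC had a value of 0.56 (SE 0.29), the glycoprotein gene GPNMB of 0.84 (SE 0.79), the cytokine IL1B of 0.74 (SE 0.69) and SPP1 of 0.53 (SE 0.67). The sign for SPP1 rested on the maraviroc mouse of reaction 1, at 2632 CPM against 92.6 to 147 CPM in the other tested maraviroc and 102 to 477 CPM in the tested untreated mice, with 3.06 in reaction 1 and -0.95 in reaction 2. IL1B likewise differed in sign, with -3.19 in reaction 1 and 1.53 in reaction 2. CXCL10 stood at 980 CPM in untreated mouse 1 of reaction 2 and had a value of 0.84 without that mouse. The values of HMOX1 and PLIN2, and those of CCL4L2 and CCR1 above, also took both signs as single mice were left out. PLIN2 and HMOX1 had values of 0.18 (SE 0.39) and 0.28 (SE 0.54). The list was chosen with results of these data known, so it is not independent evidence. CCL8, IL4I1 and FABP5 had an unadjusted p under 0.05, and with all tested mice the adjusted p was 1.0 by edgeR for each gene named in this paragraph and for the chemokine genes. MHC class II genes had a median of 0.12 over 12 genes and 0 calls, against a median of 0.00 over all genes tested.

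Whether both reactions showed the same treatment difference was tested as an interaction, which called 4 of 7448 genes (0.0537%). They were the co-chaperones DNAJB6 and DNAJB1, the heat shock protein HSPH1 and VCAN. Reaction 1 entered with a single maraviroc mouse, the shallow one with 11 members. DNAJB6 stood at 945 CPM in that mouse and at 155 to 294 CPM in the other 8, and VCAN at 518 CPM in it and at 1012 to 2586 CPM in the others. With at least 5 members per mouse, 0 genes were called by the same test, and 505 had an unadjusted p under 0.05.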

How the data were processed

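Human CD45+ cells from tumors of 14 mice were profiled in 2 reactions of 10x Genomics 3' RNA-seq with hashtag antibodies. The authors deposited raw UMI counts for 36601 genes from Cell Ranger 9.0.1 on GRCh38, with Seurat 5.1.0 named in their notes. The mouse and its treatment were read from the hashtag names, since each deposited sample is a whole reaction. Cells were filtered by the limits given above, counts were summed by mouse, reaction and class, and 19 genes that tell sex were left out of the sums. No doublet caller was run. Sums were fitted in R 4.3.3 with edgeR 4.0.16 (filterByExpr, TMM, quasi-likelihood, limma 3.58.1), with DESeq2 1.42.0 as an alternative. The treatment model held reaction and treatment, and the class models mouse and class. Shares were compared by exact permutation in Python 3.11.15 with scipy 1.17.1 and numpy 2.4.6. Nothing states that mice within a group had separate stem cell donors, so p-values measure the spread between these mice.

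Named genes were the 5 of lowest p in each direction for treatment and the tested genes of the lists on chemokines and on the study's genes. For classes they were genes of the dendritic cell, monocyte, class II, CD1, transcription factor and receptor lists, the most abundant genes of other lists, and the 8 largest changes in each direction that kept their sign in every mouse with a mean of at least 20 CPM in the higher class. Other genes named (CCL3, CCL3L1, CCR2, ISG15, MS4A1 and CD79A, and the examples chosen from longer lists) were chosen after their values were seen. The members and all lists were chosen with earlier results of these data known. Alternatives were another normalisation, DESeq2, no low-count filter, other minimum numbers of cells and UMIs, stricter markers, each reaction alone, thinning to 2000 UMIs and each mouse left out. The minimum of 3 CLEC9A+ cells, the fits with at least 5 cells for reaction 1 alone and for the interaction, leaving out mice in class comparisons and the other settings of the share among CD1C+ and CLEC9A+ cells were chosen after seeing the data. DESeq2 was run on the genes with any count. Some results are not reported here. No sequences are printed, since the reference sequences used here were not human.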

Additional observations from a re-analysis of the deposited data

Results flagged for a closer look

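Among 62 groups of mice tested for an outlying mouse, 9 had one by Dixon's criterion, which by chance alone marks a small share of groups. The groups were gene levels in the tested mice of a treatment, and share, depth and mitochondrial percent in all its mice. All 9 were gene levels. In the maraviroc mice, mouse 2 of reaction 2 was high for CCL3 at 1046 CPM, CCL4 at 751 CPM and CCL8 at 68.0 CPM. It was also marked for TNFRSF11A, at 1.39 CPM with its fellows at 0, against a mean of 18.3 CPM in the untreated mice. That is the smallest value above 0 that its 720547 UMIs allow. Mouse 1 of reaction 2 was high for ENG at 72.2 CPM. Mouse 1 of reaction 1, which had 11 members of low depth, was high for SPP1 at 2632 CPM. In the untreated mice, mouse 1 of reaction 2 was high for CXCL10 at 980 CPM, without which the treatment value of CXCL10 turned from -1.02 to 0.84, mouse 3 of reaction 2 was high for IL4I1 at 390 CPM, and mouse 3 of reaction 1 was high for PLIN2 at 407 CPM.

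The treatment difference differed between reactions for 4 genes by the interaction term of edgeR's quasi-likelihood fit with Benjamini-Hochberg adjustment. As reaction 2 minus reaction 1 on the log2 scale, it was -2.90 for DNAJB6 (adjusted p 0.0032), -3.94 for HSPH1 (0.0065), 2.79 for VCAN (0.024) and -3.03 for DNAJB1 (0.031). All rest on maraviroc mouse 1 of reaction 1, the single maraviroc mouse of that reaction in the fit, without which the term could not be fitted. With at least 5 members per mouse, which adds 1 maraviroc mouse to reaction 1, the same test called 0 genes. Whether the low depth of maraviroc mouse 1 had a part in the 4 calls was not tested.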

How the results depend on the processing

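For maraviroc, calls out of the genes tested numbered 2 by DESeq2 (WNT2B, GNLY), 2 with at least 20 cells per mouse and 2 in reaction 2 alone (WNT2B and NRG1 both times), 1 with a hashtag share of 80% and 1 with at least 5 UMIs (WNT2B), 54 with no low-count filter and 105 in reaction 1 alone, where 1 maraviroc mouse faced 2 untreated and CCL3 and IL1B turned from 0.96 and 0.74 to -4.13 and -3.19. RLE factors, no reaction term, at least 5 cells, stricter markers, and reaction 1 with at least 5 cells gave 0. Leaving out 1 mouse gave 0 to 2 calls, namely WNT2B and NRG1 without maraviroc mouse 1 of reaction 1, GNLY (higher) without maraviroc mouse 1 of reaction 2 and CCL3 (lower, at -3.03) without maraviroc mouse 2 of reaction 2. The interaction had 26 calls by DESeq2, 118 with no filter, 0 with at least 5 cells, and 1 to 8 with 1 mouse left out, 1 without untreated mouse 4 of reaction 1, 2 without maraviroc mouse 3 and 8 without untreated mouse 3 of reaction 2. Against VCAN+ cells 2257 calls became 285 in reaction 1 alone (3 mice), 1045 with stricter markers (6 mice) and 803 of 4762 genes after thinning, and 1872 to 2207 with 1 mouse left out. With no filter they were 703 higher and 1635 lower. The 12 class II genes were higher in reaction 1 alone, with stricter markers and after thinning. Against CLEC9A+ cells 1537 calls became 483 with stricter markers (3 mice) and 292 of 497 genes after thinning, and 1118 to 1627 with 1 mouse left out, and scaling by RLE or DESeq2 moved the median of all genes by 0.11 and 0.15 on the log2 scale, and thinning that of 497 genes by 0.42. With no filter they were 1421 higher and 621 lower. Against LAMP3+ cells 2191 calls became 1443 by DESeq2 and 563 of 904 genes after thinning, and 1647 to 1818 with 1 mouse left out, when the fit rests on 2 mice. Thinning moved the median of 904 genes by 0.27, and with no filter 1585 were higher and 1248 lower. Stricter markers could not be fitted there. The share difference kept its sign and stayed above the threshold in the other definitions (exact permutation p of 0.309 to 0.576) and with 1 mouse left out (0.123 to 0.570), and passed only as a share of CD1C+ and CLEC9A+ cells, at -13.7 points. That share gave -22.2 with at least 5 UMIs, where it passed. It did not pass at -13.4 with over 1000 genes, -6.18 with a hashtag share of 80%, or -19.2 and -6.90 in reactions 1 and 2 alone. With stricter markers its sign turned, at 2.88, and it did not pass. By the rule after thinning it was 14.2 and did not pass. That value counted as 0% the undefined share of untreated mouse 1 of reaction 1, which had 0 cells of both classes. With 1 mouse left out, the difference by the main rule ran from -15.9 to -10.6 points. Causes were not tested. No paired analysis was possible because the replicate numbers of the mice pair nothing across treatments.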
